A study of Mus musculus with 10 samples.

Results

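A set of 9 genes that mark excitatory neurons of cortical layers 2 to 4 were followed in the barrel field of the mouse primary somatosensory cortex (S1BF). The members were taken by gene symbol from the deposited table: Cux1, Cux2, Rasgrf2, Otof, Mdga1, Rspo1, Scnn1a, Whrn and Thsd7a, which are 9 of its 52636 genes. All 9 passed the low-count filter that left 18455 genes for testing. Bulk RNA was sequenced from C57BL/6 mice at postnatal day 17 in 10 libraries. Loxp mice (4 libraries) carried the floxed Rxra allele (Rxratm1Krc/J) and no Cre. Hetero mice (2 libraries) carried Nex-cre with heterozygous deletion of Rxra, and cKO mice (4 libraries) carried Nex-cre with the conditional knockout. The floxed allele is therefore common to all 3 groups, and both Cre groups differ from Loxp in Nex-cre as well as in Rxra. In Nex-cre mice the recombinase replaces Neurod6 coding sequence and is active in forebrain excitatory neurons, so interneurons and glia of the same tissue keep Rxra. Whether the libraries are separate animals is not said in the labels, and the p-values reflect only how much these samples vary, which may be technical.

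Layers 2 and 3 of sensory cortex hold neurons that project within the cortex, and layer 4 is the main target of sensory thalamus; in S1BF its neurons form the barrels. Cux1 and Cux2 encode CUT-homeodomain transcription factors found in layers 2 to 4, where they act on dendrite branching and spine formation. Rasgrf2 (an exchange factor for Ras), Otof (otoferlin, a calcium sensor known from hair cell synapses) and Mdga1 (a membrane-anchored immunoglobulin-domain protein that binds neuroligins) are used as markers of layers 2 and 3. Rspo1 (R-spondin 1, a secreted enhancer of Wnt signalling) and Scnn1a (the alpha subunit of the epithelial sodium channel) are used as markers of layer 4. Whrn (whirlin, a PDZ-domain scaffold protein) and Thsd7a (a membrane protein with thrombospondin repeats) were grouped here with layer 4. RXR alpha, the protein of Rxra, is a nuclear receptor that pairs with retinoic acid, thyroid hormone and other receptors on DNA.

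Total counts were 19332990 to 26086337 per library. Slc17a7, the vesicular glutamate transporter of cortical excitatory neurons, was at 391 to 481 FPKM (fragments scaled by gene length and library size, as deposited) in the 10 libraries, and Rorb, a transcription factor of layer 4, at 3.91 to 7.21 FPKM. Over the whole gene, Rxra was at 3.92 to 5.81 FPKM in Loxp, 4.24 to 4.81 in Hetero, inside the Loxp range, and 5.29 to 5.88 in cKO, where it was not lower than in Loxp. A whole-gene count does not check the deletion. Neurod6, the Cre locus, was at 25.7 to 30.8 FPKM in 3 Loxp libraries and at 16.2 in the library labelled Loxp 4, where Hetero had 15.7 and 15.9 and cKO 10.6 to 17.6. cKO 2 was the highest or the lowest library for 6 of the 9 markers, and the library labelled Loxp 4 was the highest for 5. The fold changes of the markers against cKO are given with and without cKO 2, and some also without the library labelled Loxp 4. In bulk tissue, fewer cells of a type and less RNA per cell cannot be told apart.

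By length-scaled level, Whrn, Cux2 and Rasgrf2 were the most abundant markers and Scnn1a the least. Over the 10 libraries the mean level was 16.2 ± 4.30 FPKM for Whrn, 16.1 ± 2.04 for Cux2, 15.2 ± 1.94 for Rasgrf2 and 5.79 ± 0.756 for Cux1 (SD, n = 10). It was 4.41 ± 1.93 for Mdga1, 3.46 ± 0.692 for Thsd7a, 2.94 ± 0.906 for Rspo1, 2.05 ± 1.28 for Otof and 1.45 ± 0.294 for Scnn1a (SD, n = 10). Neighbours in this order overlapped in their ranges with 1 exception: every library had more Rasgrf2 (at least 12.3 FPKM) than any had Cux1 (at most 7.24). Whrn was above Cux2 in only 5 of 10 libraries, and Otof was above Scnn1a in 6 of 10. Raw counts ran from 60 (Rspo1 in cKO 2) to 4880 (Cux2 in the library labelled Loxp 4), so Rspo1 and Scnn1a, at 60 to 218 counts, carry the largest counting error.

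**Figure D1:**
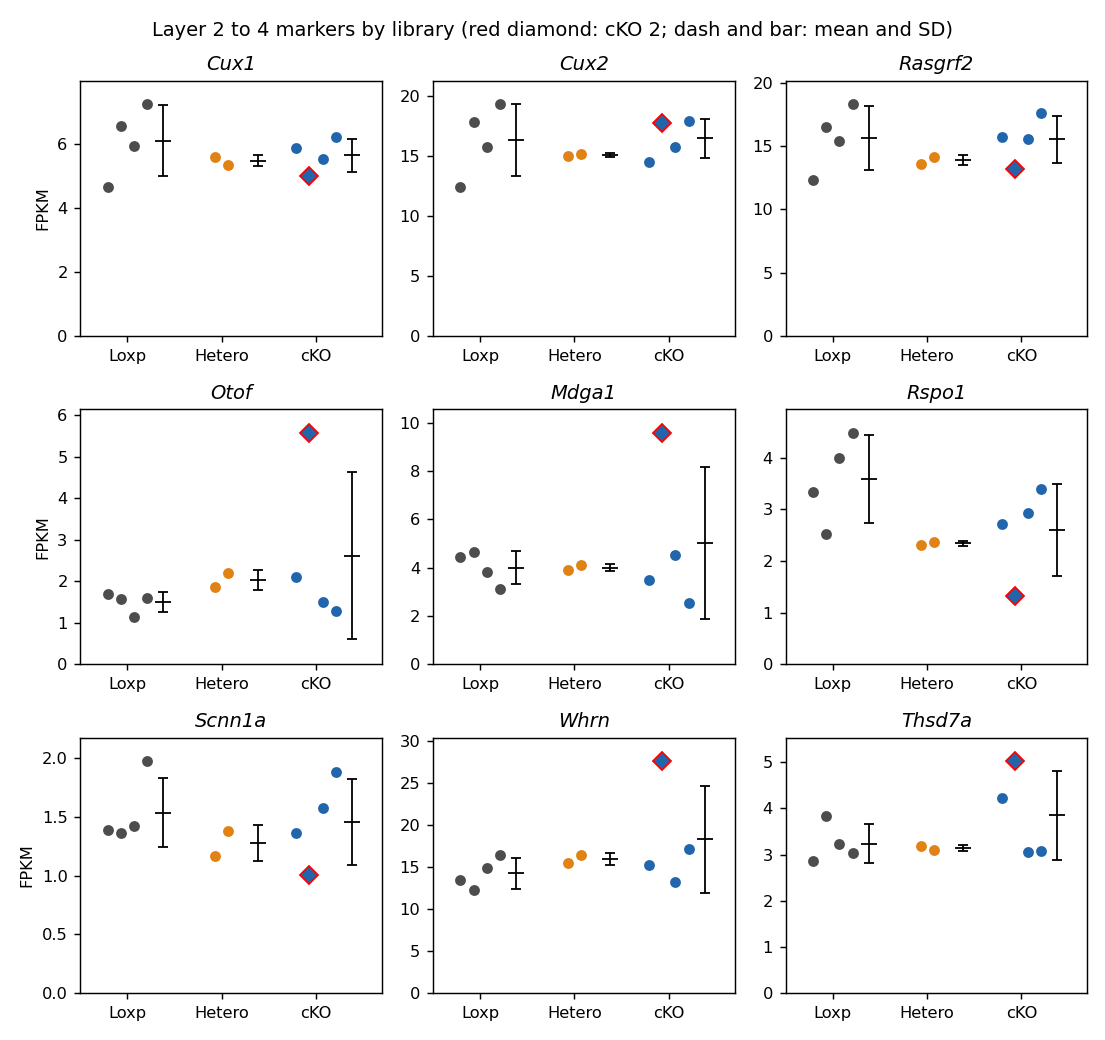
Level of each marker in FPKM (vertical axes, from 0) in the Loxp, Hetero and cKO libraries, with points in replicate order, the red diamond for cKO 2, and the mean and SD of each group. Cux1, Cux2 and Rasgrf2 overlap in all groups, while cKO 2 has the highest Otof (5.59), Mdga1 (9.58), Whrn (27.6) and Thsd7a (5.03) and the lowest Rspo1 (1.33) and Scnn1a (1.01).

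The 9 genes did not vary as a block. The SD of log2 CPM over the 10 libraries was 0.18 for Cux1, 0.19 for Cux2 and 0.18 for Rasgrf2, against a median of 0.17 over tested genes with a mean above 1 CPM. It was 0.63 for Otof, 0.50 for Mdga1 and 0.48 for Rspo1, which was a larger SD than in 98.4%, 96.2% and 95.6% of those genes. Whrn had 0.32, Scnn1a 0.28 and Thsd7a 0.26. Without cKO 2 the SD fell to 0.30 for Otof, 0.29 for Mdga1, 0.33 for Rspo1 and 0.16 for Whrn.

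cKO 2 was the highest or the lowest of the 10 libraries for 6 of the 9 markers, where it was so for 39.1% of all genes tested. On the log2 scale cKO 2 lay above the mean of the other 9 libraries by 1.77 for Otof, 1.34 for Mdga1, 0.90 for Whrn and 0.62 for Thsd7a. Rspo1 in cKO 2 lay at −1.17 and Scnn1a at −0.55 from that mean. Cux2 (0.17), Cux1 (−0.23) and Rasgrf2 (−0.22) stayed within the range of the other libraries. Rspo1 and Scnn1a, used as markers of layer 4, were thus both low in this library. Whrn and Thsd7a, which were only grouped here with layer 4, went with Otof and Mdga1 instead. The library labelled Loxp 4 was the highest for 5 markers (Cux1, Cux2, Rasgrf2, Rspo1 and Scnn1a). It was the highest for 9.34% of all genes and at an extreme for 18.8%. Loxp 1 was the lowest for 4 markers (Cux1, Cux2, Rasgrf2 and Thsd7a), where it was the lowest for 15.2% of all genes and at an extreme for 31.6%.

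Markers of other cells and layers moved in cKO 2 as well. The mean deviation from the 10-library mean in cKO 2 was −1.44 on the log2 scale for 8 striatal genes, −0.71 for 8 oligodendrocyte genes, −0.33 for 12 genes of layer 6 and the subplate, −0.23 for 10 interneuron genes and −0.22 for 12 genes of layer 5. It was 0.22 for 8 astrocyte genes and 0.25 for 7 microglia genes. Other libraries were as low or lower for some lists: layer 5 genes were at −0.31 in cKO 4 and −0.27 in the library labelled Loxp 4, and interneuron genes at −0.24 in Loxp 2. The median deviation of the interneuron genes in cKO 2 was −0.10. Single interneuron genes differed in how far they moved in cKO 2. Pvalb, the parvalbumin gene of fast-spiking interneurons, was at 17.3 FPKM in cKO 2 and at 43.7 to 90.4 in the other 9 libraries. Slc32a1 was at 40.8 FPKM in cKO 2, inside its range of 27.4 to 53.5 in the other 9 libraries. Gad2 was at 22.7 FPKM in cKO 2 and at 23.1 or more in the other 9 libraries, and Gad1 was also lowest in cKO 2. Summed oligodendrocyte levels were 8801 to 11256 CPM in Loxp, 6789 and 9906 in Hetero and 6216 to 10489 in cKO, the lowest being cKO 2. Summed striatal levels were 260 to 1046 CPM in Loxp, 473 and 605 in Hetero and 241 to 921 in cKO. The striatal gene Drd2 was at 0.690 FPKM in cKO 2 and 0.652 in Loxp 2, and at 2.81 to 8.99 elsewhere. The mean striatal deviation of Loxp 2 was −1.26, and Otof was at −0.23 and Rspo1 at −0.15 from their 10-library means in that library. The part of these lists in the marker values was not tested.

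**Figure D2:**
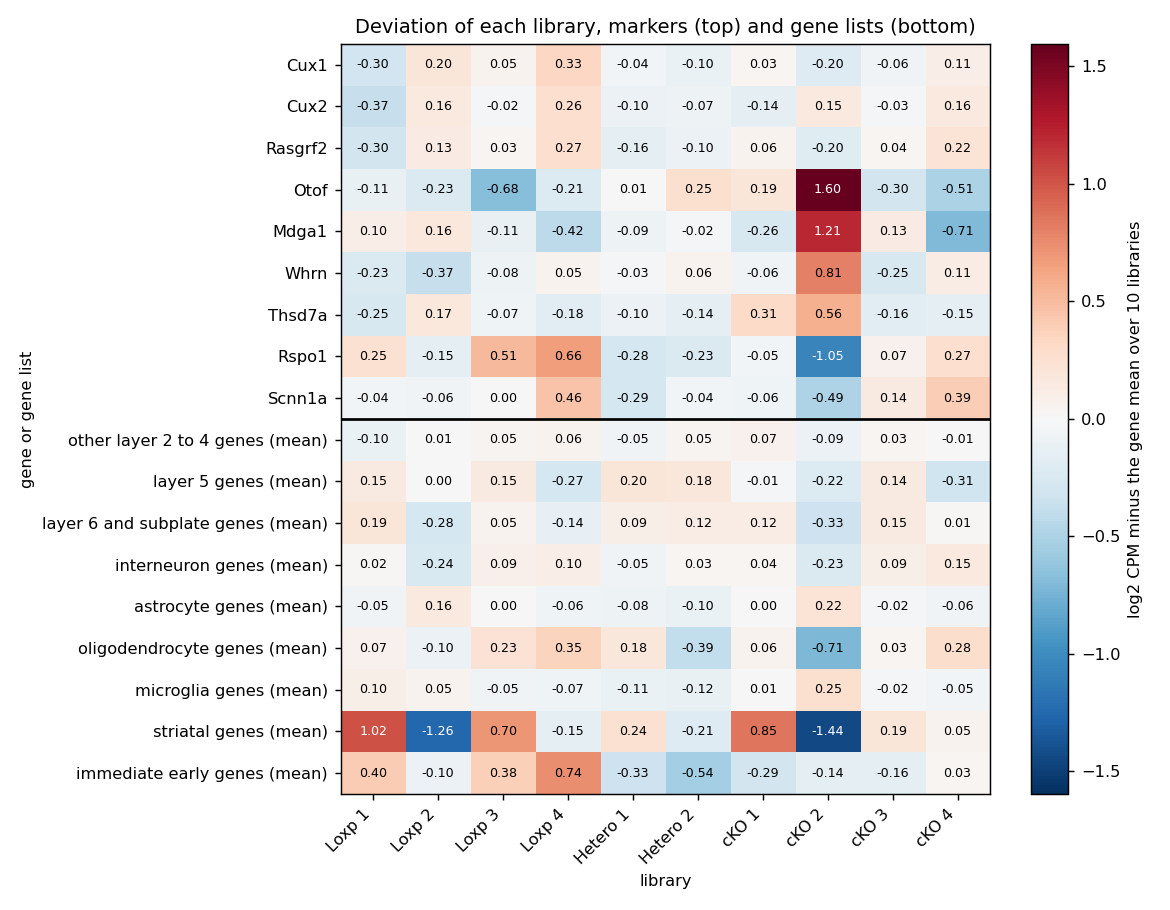
Difference of each library (horizontal axis) from the mean of the 10 libraries in log2 CPM, for each marker above the line and as the mean of each gene list below it; red is above and blue below the mean. The column of cKO 2 runs from 1.596 for Otof to −1.05 for Rspo1, and its mean striatal value is −1.44.

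Promoter windows from RefSeq (build GRCm38.p6, 300 bases each, most of them upstream of a start) matched 7 of the 9 genes, in 8 windows, since Cux2 has a pair of starts; Otof and Scnn1a had no match. The windows below are shown for 3 genes that parted in cKO 2 (Mdga1 and Whrn high, Rspo1 low) and for the downstream start of Cux2. The Mdga1 window and this Cux2 window lie inside the annotated genes. They are chr17:29887833-29888132 (Mdga1, minus strand), chr4:63495942-63496241 (Whrn, minus strand), chr4:124986180-124986479 (Rspo1, plus strand) and chr5:122047776-122048075 (Cux2, minus strand). Capitals mark matches on either strand to GGGCGG (the SP box), CAGATG (an E-box of the Neurod type, CATCTG on the other strand), ATCGAT (the core bound by CUX homeodomains) and TATAAA (the TATA box).
Mdga1: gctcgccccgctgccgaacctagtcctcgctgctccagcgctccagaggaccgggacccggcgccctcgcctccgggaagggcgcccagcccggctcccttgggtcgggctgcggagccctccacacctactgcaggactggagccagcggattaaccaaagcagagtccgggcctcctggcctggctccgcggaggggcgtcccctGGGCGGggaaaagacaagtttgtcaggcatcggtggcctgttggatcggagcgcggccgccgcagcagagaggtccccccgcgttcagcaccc
Whrn: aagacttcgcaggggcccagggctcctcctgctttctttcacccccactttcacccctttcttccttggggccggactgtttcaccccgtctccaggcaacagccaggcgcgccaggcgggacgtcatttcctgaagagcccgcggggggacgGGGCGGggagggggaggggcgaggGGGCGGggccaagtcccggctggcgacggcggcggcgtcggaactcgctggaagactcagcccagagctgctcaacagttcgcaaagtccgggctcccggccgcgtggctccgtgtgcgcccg
Rspo1: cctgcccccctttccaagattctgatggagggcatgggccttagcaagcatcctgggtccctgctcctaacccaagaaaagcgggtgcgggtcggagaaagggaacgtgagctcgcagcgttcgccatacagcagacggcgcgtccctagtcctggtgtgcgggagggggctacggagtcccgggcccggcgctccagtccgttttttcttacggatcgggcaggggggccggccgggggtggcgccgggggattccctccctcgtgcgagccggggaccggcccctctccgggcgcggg
Cux2, downstream start: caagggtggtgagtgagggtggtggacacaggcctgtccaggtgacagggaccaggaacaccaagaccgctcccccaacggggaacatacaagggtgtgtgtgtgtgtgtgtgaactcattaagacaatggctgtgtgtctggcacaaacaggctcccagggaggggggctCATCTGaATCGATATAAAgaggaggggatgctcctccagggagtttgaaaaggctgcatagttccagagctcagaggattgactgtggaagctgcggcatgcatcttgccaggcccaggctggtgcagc
Mdga1 and Thsd7a hold GGGCGG at 1 place each and Whrn at 2. Rspo1, Cux1, Rasgrf2 and both Cux2 windows hold it at none. This box is in 35.7% of 32851 mouse promoter windows of this length. In the Cux2 window the matches to the E-box, the CUX core and TATAAA stand side by side, and the latter pair overlap. These are matches of letters, and whether any of them works as a site was not tested. The E-box is in 17.2% of all windows, the CUX core in 0.925% and the TATA box in 13.6%. The nuclear receptor half-site AGGTCA, searched on both strands, was in none of the 8 member windows and is in 16.3% of all windows, which says only that these letters are not in these windows. The GC content was 71.3% in Mdga1, 70.0% in Whrn, 69.0% in Rspo1 and 56.7% in the Cux2 window shown, against a median of 52.7% over all windows.

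Setting cKO beside Loxp addresses the marker levels with Nex-cre and the Rxra knockout together, which this comparison cannot separate. None of the 9 markers passed the threshold (edgeR adjusted p under 0.05; 0% of all genes tested did). DESeq2 and limma-voom called 0 genes as well. Of the 9, 5 were higher and 4 lower, and the median was 0.01 on the log2 scale, against 50.1% higher and a median of 0.00033 over all genes tested. Otof had an unadjusted p under 0.05, which is 1 of 9 markers beside 2.53% of all genes. No marker had groups without overlap, as 1.54% of all genes did. Other lists leaned to 1 side in the same comparison: 0 of 14 immediate early genes, 0 of 8 oligodendrocyte genes and 0 of 8 striatal genes had a higher fitted mean in cKO, with medians of −0.45, −0.19 and −0.17, and none of these genes passed. Without cKO 2 the counts were 0 of 14, 4 of 8 and 8 of 8, with medians of −0.51, 0.0018 and 0.08. Their part in the marker values was not tested.

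Cux1 and Cux2, the transcription factors of the set, were close in both groups. Cux1 stood at 4.66, 6.57, 5.94 and 7.24 FPKM in Loxp 1 to 4 and at 5.87, 4.99, 5.52 and 6.20 in cKO 1 to 4. Cux2 stood at 12.4, 17.8, 15.7 and 19.3 FPKM in Loxp and at 14.5, 17.7, 15.7 and 17.9 in cKO. In both genes all cKO libraries lay inside the Loxp range. The log2 fold change of Cux1 was −0.11 (95% interval −0.37 to 0.14, edgeR adjusted p = 0.9998), and −0.06 without cKO 2. For Cux2 it was 0.01 (95% interval −0.25 to 0.27, edgeR adjusted p = 0.9998), a value that lay between −0.10 (without Loxp 1) and 0.11 (without the library labelled Loxp 4) when single libraries were left out, and was −0.02 without cKO 2. GENCODE M21 lists 14 transcripts for Cux1, and 394 of its exon bases are shared with the antisense gene Gm16599. How the deposited counts treated reads from the shared bases is not known.

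Rasgrf2 behaved like Cux1. It was at 12.3, 16.5, 15.4 and 18.3 FPKM in Loxp and at 15.7, 13.2, 15.5 and 17.6 in cKO, again inside the Loxp range. The log2 fold change of Rasgrf2 was −0.01 (95% interval −0.26 to 0.24, edgeR adjusted p = 0.9998). It turned to 0.06 without cKO 2, 0.08 without the library labelled Loxp 4 and 0.02 without Loxp 2.

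Otof and Mdga1 had high means in cKO in which cKO 2 stood far above the rest. Otof was at 1.70, 1.57, 1.14 and 1.597 FPKM in Loxp and at 2.10, 5.59, 1.498 and 1.29 in cKO. In 2 of the 4 cKO libraries (cKO 1 and cKO 2) Otof lay above every Loxp library, and the other two lay inside the Loxp range. Loxp averaged 1.501 ± 0.246 FPKM and cKO 2.62 ± 2.01 (SD, n = 4 each). The log2 fold change of Otof was 0.80 (95% interval 0.02 to 1.59, edgeR adjusted p = 0.9998). By exact permutation (two-sided) p was 0.343 for Otof, where 0.0286 is the smallest p that 4 against 4 libraries allow. Without cKO 2 the mean of Otof in cKO was 1.63 ± 0.421 FPKM (SD, n = 3) and the log2 fold change 0.12 (SE 0.172, edgeR adjusted p = 0.9996). With no low-count filter Otof passed with all libraries in (log2 fold change 0.81, SE 0.181, edgeR adjusted p = 0.0228). It was then 1 of 32 genes called among 32197. The filtered fit had an SE of 0.365 for Otof. DESeq2 gave a log2 fold change of 0.80 with an SE of 0.472 and did not call Otof.

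Mdga1 was at 4.44, 4.63, 3.81 and 3.11 FPKM in Loxp and at 3.47, 9.58, 4.54 and 2.54 in cKO. cKO 2 was the only cKO library above the Loxp range, and cKO 4 was below it. The log2 fold change of Mdga1 was 0.33 (95% interval −0.33 to 0.99, edgeR adjusted p = 0.9998), and −0.18 without cKO 2.

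Whrn and Thsd7a followed the same library. Whrn was at 13.4, 12.2, 14.9 and 16.4 FPKM in Loxp and at 15.2, 27.6, 13.3 and 17.1 in cKO. cKO 2 and, narrowly, cKO 4 were above the Loxp range for Whrn, and the other two were inside it. Its log2 fold change of 0.36 (95% interval −0.03 to 0.75, edgeR adjusted p = 0.9998) was 0.09 without cKO 2. Thsd7a was at 2.86, 3.83, 3.23 and 3.03 FPKM in Loxp and at 4.24, 5.03, 3.05 and 3.09 in cKO. cKO 1 and cKO 2 were above every Loxp library for Thsd7a and the other two were not. Its log2 fold change was 0.25 (95% interval −0.08 to 0.57, edgeR adjusted p = 0.9998), and 0.10 without cKO 2.

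Rspo1 and Scnn1a, the pair of layer 4 markers that were low in cKO 2, differed in how the other cKO libraries stood. Rspo1 was at 3.33, 2.52, 3.996 and 4.48 FPKM in Loxp and at 2.71, 1.33, 2.94 and 3.39 in cKO. Only cKO 2 lay below the Loxp range for Rspo1, and the other cKO libraries lay inside it. The log2 fold change of Rspo1 was −0.47 (95% interval −1.0003 to 0.06, edgeR adjusted p = 0.9998). All 4 cKO libraries lay below the Loxp mean of 3.58 FPKM, as did Loxp 1 and Loxp 2. The log2 fold change was −0.25 without cKO 2, −0.34 without the library labelled Loxp 4 and −0.62 without cKO 4. For Rspo1 the exact permutation p (two-sided) was 0.200. Scnn1a was at 1.39, 1.37, 1.42 and 1.98 FPKM in Loxp and at 1.37, 1.01, 1.57 and 1.88 in cKO. Its log2 fold change was −0.08 (95% interval −0.49 to 0.33, edgeR adjusted p = 0.9998), and it turned to 0.06 without cKO 2 and to 0.07 without the library labelled Loxp 4.

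**Figure D3:**
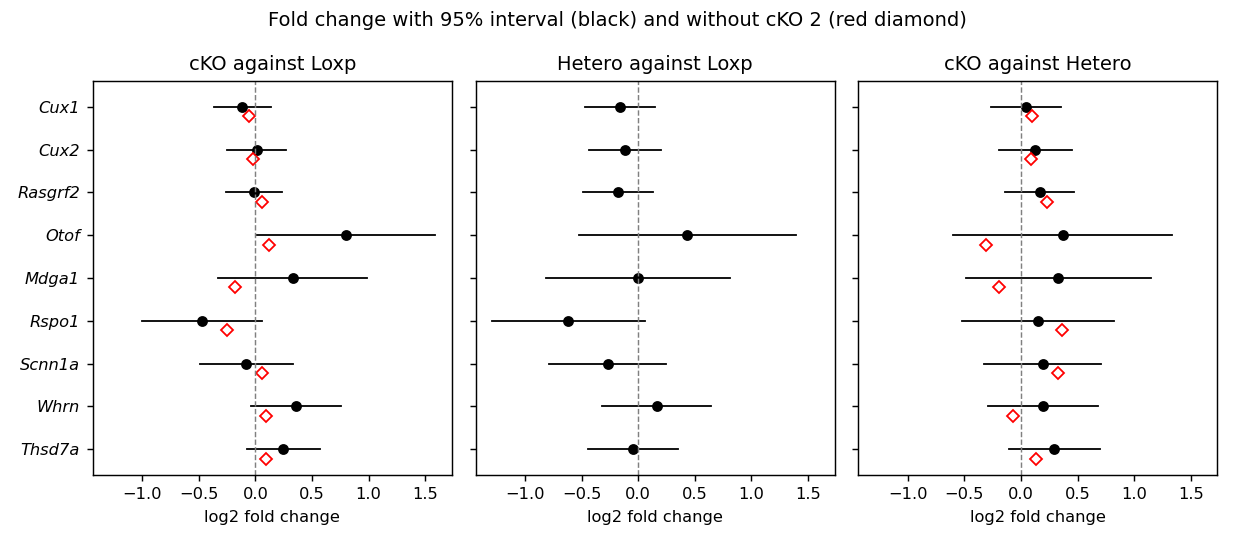
Log2 fold change of each marker (horizontal axes) in the 3 comparisons, from all 10 libraries with its 95% interval in black. The comparisons that include cKO also show the value without cKO 2 as an open red diamond. In cKO against Loxp the red diamonds lie between −0.25 (Rspo1) and 0.12 (Otof), while the black points reach from −0.47 to 0.80.

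Hetero, with 2 libraries, was set against the same Loxp controls, so this comparison shares them with the one above. None of the 9 markers passed (edgeR adjusted p = 0.9998 for each; 0% of all genes tested did). At an unadjusted p under 0.05 there were 0 of 9 markers and 2.54% of all genes, and DESeq2 called 20 genes, no marker among them. Of the 9, 3 were higher and 6 lower; the median was −0.11 on the log2 scale, against −0.0068 over all genes. Groups without overlap were seen for 2 markers, Otof and Rspo1, beside 11.4% of all genes. Otof was at 1.85 and 2.20 FPKM in Hetero, above the Loxp maximum of 1.70. Rspo1 was at 2.31 and 2.37 FPKM in Hetero, below the Loxp minimum of 2.52. The log2 fold change was 0.43 for Otof (95% interval −0.52 to 1.39) and −0.62 for Rspo1 (95% interval −1.29 to 0.06), both with an edgeR adjusted p = 0.9998. Exact two-sided permutation tests gave p = 0.0667 for Otof and p = 0.133 for Rspo1, where 0.0667 is the smallest p that 2 against 4 libraries allow. The authors' deposited table gives unadjusted p-values of 0.0214 for Otof and 0.0165 for Rspo1, with an adjusted p of 0.99996 for each.

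The other 7 markers overlapped between Hetero and Loxp. Cux1 stood at 5.59 and 5.35 FPKM in Hetero, Cux2 at 15.0 and 15.2, and Rasgrf2 at 13.6 and 14.1, all inside the Loxp ranges. Their log2 fold changes were −0.16 (95% interval −0.47 to 0.15), −0.11 (−0.43 to 0.20) and −0.18 (−0.48 to 0.13). Mdga1, at 3.92 and 4.10 FPKM, had a log2 fold change of 0.0013 (95% interval −0.81 to 0.81), whose sign changed without Loxp 3, the library labelled Loxp 4 or Hetero 2. Scnn1a was at 1.17 and 1.38 FPKM, and only Hetero 1 fell outside the Loxp range. Its log2 fold change was −0.27 (95% interval −0.79 to 0.25). Whrn was at 15.5 and 16.4 FPKM (log2 fold change 0.16, 95% interval −0.32 to 0.64) and Thsd7a at 3.19 and 3.09 (−0.05, −0.45 to 0.35, and 0.05 without Loxp 2). Hetero 2 carried choroid plexus RNA, with Ttr at 569 FPKM against 2.88 in Hetero 1 and at most 15.1 in the other libraries, and 0 of 14 immediate early genes had a higher fitted mean in Hetero (median −0.90). Their part in the marker values was not tested.

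Between the 2 groups with Nex-cre, all 9 markers had a higher fitted mean in cKO than in Hetero, and none passed (edgeR adjusted p = 0.9999 for each; 0% of all genes tested passed). The median log2 fold change was 0.19, against 0.0078 over all genes, of which 52.5% were higher. The values ran from 0.05 for Cux1 to 0.37 for Otof, and no marker was without overlap, as 9.43% of all genes were. No marker had an unadjusted p under 0.05 here, beside 1.74% of all genes, and DESeq2 called 3 genes (Esd, Aqp1 and Slc4a5). Without cKO 2, 6 were higher and 3 lower, with a median of 0.10: Otof turned to −0.31 (SE 0.203), Mdga1 to −0.19 (SE 0.200) and Whrn to −0.07 (SE 0.128). Without cKO 4, Cux1 and Rspo1 stood at −0.0047 and −0.0095. Other lists leaned to 1 side here too. All 8 astrocyte genes (median 0.14), all 7 microglia genes (0.18) and 12 of 14 immediate early genes (0.39) had a higher fitted mean in cKO, against 1 of 12 layer 5 genes (−0.26) and 0 of 6 choroid plexus genes (−2.89). Without cKO 2 these counts were 6 of 8, 6 of 7, 13 of 14, 1 of 12 and 0 of 6. Their part in the marker values was not tested.

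Rasgrf2 and Cux1 kept nearly fixed proportions over the 10 libraries, and Cux2 and Cux1 did so outside cKO 2. The ratio of Rasgrf2 to Cux1 in FPKM was 2.63 ± 0.128 (SD, n = 10) and ran from 2.43 in Hetero 1 to 2.84 in cKO 4. The ratio of Cux2 to Cux1 was 2.71 ± 0.128 over 9 libraries (SD, n = 9, range 2.47 to 2.88) and 3.55 in cKO 2. Over all 10 libraries it was 2.79 ± 0.293 (SD, n = 10). By contrast, the ratio of Otof to Rspo1 ran from 0.286 in Loxp 3 to 0.926 in Hetero 2 and was 4.21 in cKO 2.

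Of the 36 pairs of markers, 3 passed a permutation test of Pearson's r over the 10 libraries after Benjamini-Hochberg adjustment. Cux1 and Rasgrf2 rose and fell together (r = 0.93, permutation p = 0.00015, adjusted p = 0.0054; Spearman's rho = 0.90, permutation p = 0.00078, adjusted p = 0.0230; n = 10). Their r was 0.85 without the 2 libraries farthest from the median of Cux1 and 0.92 without cKO 2. Rspo1 and Scnn1a gave r = 0.84 (permutation p = 0.00283, adjusted p = 0.0340; rho = 0.89, permutation p = 0.00128, adjusted p = 0.0230; n = 10). Otof and Rspo1 went in opposite directions, with r = −0.87 (permutation p = 0.0028, adjusted p = 0.0340; rho = −0.73, permutation p = 0.0198, adjusted p = 0.178; n = 10). For Rspo1 and Scnn1a r was 0.54 without the 2 libraries farthest from the median of Rspo1. For Otof and Rspo1 it was −0.54 without the 2 farthest from the median of Otof. With the 2 farthest libraries left out in this way, 0 of the 36 pairs passed, so Cux1 with Rasgrf2 did not pass either. Without cKO 2, r was 0.72 for Rspo1 and Scnn1a (permutation adjusted p = 0.164, n = 9). For Otof and Rspo1 it was −0.65 (permutation adjusted p = 0.244, n = 9).

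A further 2 pairs passed once cKO 2 was left out. Cux2 went with Cux1 at r = 0.93 and with Rasgrf2 at r = 0.92 (permutation adjusted p = 0.00948 for each, n = 9), where all 10 libraries gave 0.72 and 0.71 (permutation adjusted p = 0.0767 for each, n = 10). The choice of leaving out cKO 2 was made after its values were seen. Mdga1 and Whrn, both highest in cKO 2, gave r = 0.54 with it and −0.80 without it (permutation adjusted p = 0.198 with n = 10 and 0.0720 with n = 9).

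**Figure D4:**
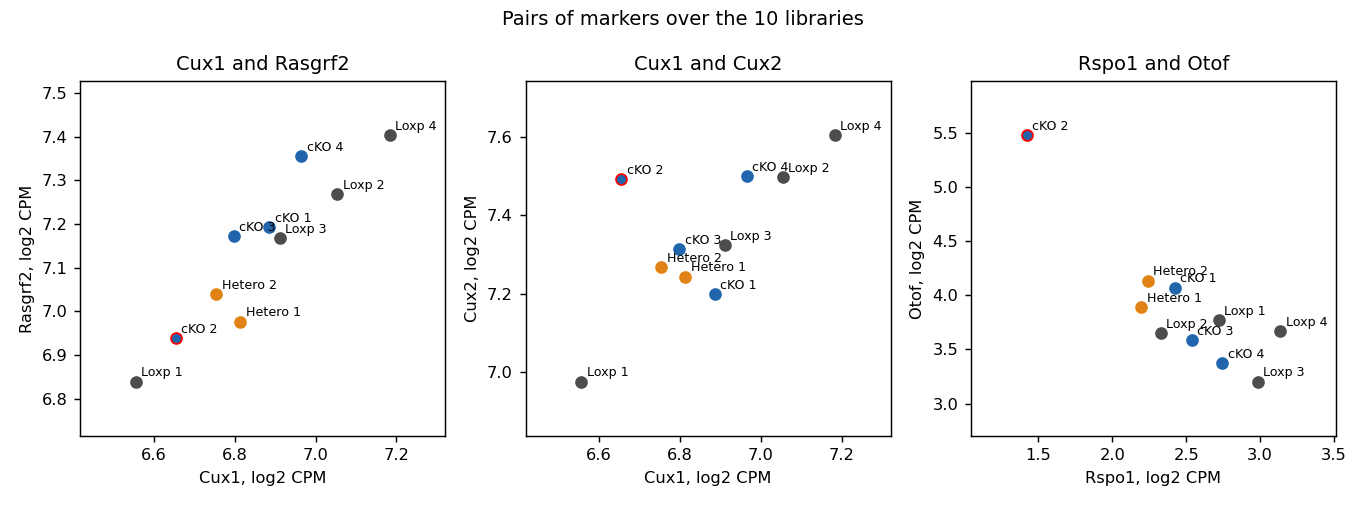
Log2 CPM of Cux1 against Rasgrf2 (left), Cux1 against Cux2 (middle) and Rspo1 against Otof (right), with 1 point a library, coloured by group and with cKO 2 outlined in red. cKO 2 falls in with the trend of the other libraries at left (r = 0.93), stands above that trend in the middle, and at the far upper left at right (r = −0.87).

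Another 20 genes known from layers 2 to 4 were set beside the markers. In cKO against Loxp 8 of them were higher and 12 lower (median −0.04 on the log2 scale), and 0 passed. The smallest p-values belonged to Wfs1 (0.38, SE 0.138), an endoplasmic reticulum membrane protein, Matn2 (0.36, SE 0.137), a matrix protein, and the transcription factors Bhlhe22 (0.42, SE 0.169) and Pou3f1 (−0.22, SE 0.0919), each with an edgeR adjusted p = 0.9998. Without cKO 2 these were 0.21, 0.31, 0.16 and −0.15, and 11 of the 20 genes were higher. In Hetero against Loxp 10 were higher and 10 lower (median 0.00057), and Btbd3 (−0.27, SE 0.104), Pou3f1 (−0.19, SE 0.114), the netrin receptor gene Unc5d (−0.24, SE 0.171) and Rorb (−0.27, SE 0.229) had the smallest p, with an edgeR adjusted p = 0.9998 each. In cKO against Hetero 13 were higher and 7 lower (median 0.03), led by Inhba (−0.47, SE 0.245), Unc5d (0.33, SE 0.171), Bhlhe22 (0.37, SE 0.210) and Wfs1 (0.28, SE 0.171), with an edgeR adjusted p = 0.9999 each. Without cKO 2 these were −0.27, 0.30, 0.11 and 0.11, again with 13 genes higher and 7 lower, and Btbd3 (0.21, SE 0.0918, edgeR adjusted p = 0.9999) had the smallest p.

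These 20 genes parted in cKO 2 as well. cKO 2 was the highest library for 5 of them and the lowest for 8, where it was the highest for 19.97% and the lowest for 19.1% of all genes tested. Bhlhe22 lay above the mean of the other libraries by 0.95 on the log2 scale, Plxnd1, a semaphorin receptor gene, by 0.78, Wfs1 by 0.71 and the transcription factor gene Lhx2 by 0.67. Inhba, an activin subunit gene, lay at −1.17, Ctxn3 at −1.13, Lamp5 at −0.84 and Stard8 at −0.72. Rorb was at −0.41, near Loxp 1, which had the lowest level (3.91 FPKM, against 3.99 in cKO 2).

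The genes most like Cux2 over the 10 libraries, among 10695 with a mean log2 CPM over 3, were Ift172 (r = 0.97), C2cd2 (0.95), Ablim1 (0.95), Cdh20 (0.93) and Agbl3 (0.93). For Scnn1a they were Sgk1 (r = 0.98), Arhgef4 (0.96), Strn4 (0.95), Pygm (0.95) and 2810403A07Rik (0.95). These are the highest of many correlations over few libraries and are given as a description.

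Gene positions are those of GENCODE M21 (GRCm38). Cux1 (ENSMUSG00000029705) is at chr5:136248135-136567490, Cux2 (ENSMUSG00000042589) at chr5:121856366-122050102 and Otof (ENSMUSG00000062372) at chr5:30367062-30461932. Rasgrf2 (ENSMUSG00000021708) is at chr13:91880400-92131656 and Mdga1 (ENSMUSG00000043557) at chr17:29827949-29970087. Whrn (ENSMUSG00000039137) is at chr4:63414910-63495991 and Rspo1 (ENSMUSG00000028871) at chr4:124986430-125009099. Thsd7a (ENSMUSG00000032625) is at chr6:12311610-12749410 and Scnn1a (ENSMUSG00000030340) at chr6:125320659-125344943. All 9 are protein-coding, and among the genes overlapping them only Gm16599 at Cux1 shared exon bases.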

How the data were processed

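RNA was sequenced from S1BF of 10 mouse samples. Libraries were made with a NEBNext Ultra kit from Trizol-extracted RNA, per the labels' protocols. The submitters' processing notes name featureCounts 1.5.0-p3 and mm10 for the counts per gene that the authors deposited. No source used here names the aligner or annotation. FPKM per gene and library, and log2 fold changes and p-values of the authors' own tests, come from the same deposited table.

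The counts were tested with edgeR 4.0.16 in R 4.3.3 (TMM, filterByExpr, glmQLFit, glmQLFTest), with all 10 libraries and a mean per group, and Benjamini-Hochberg adjustment over 18455 genes at 0.05. The script was tested on simulated data. Intervals are 95% intervals of that fit. CPM use TMM-scaled totals, and log2 CPM a prior count of 2. FPKM give levels per gene length, untested. Permutation tests of single markers were exact on log2 CPM; adjusted over the 27 of them, none passed (smallest adjusted p = 0.982). Those of the 36 pairs used 100000 resamples. Alternatives were DESeq2 1.42.0, limma 3.58.1 (voom, and log2(FPKM + 0.1) or + 1), other scaling, filters, samples and a replicate block, and each library left out in turn. All 9 markers are named in each comparison, and of the other 20 genes the 4 with the smallest p. The members and lists were chosen with earlier results of these data known. The chi-square per gene was 4.76 to 39.0 over the 45 pairs of libraries, so no pair of libraries agreed within sampling noise.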

Additional observations from a re-analysis of the deposited data

Results flagged for a closer look

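Scnn1a in the library labelled Loxp 4 stood apart from the other 3 Loxp libraries. It was at 8.18 CPM there, and the gap to the next library was 0.884 of the whole range of log2 CPM in Loxp, above Dixon's 95% critical value of 0.829 for 4 samples. This was the only such case among the 18 sets of 4 libraries examined (9 markers in Loxp and in cKO), and chance flags about 1 in 20. Otof, Mdga1 and Whrn in cKO 2 did not pass this test.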

How the results depend on the processing

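Each marker's fold change was recomputed under 10 alternative settings and with each library left out, 450 values in all, of which 425 kept their direction and their side of the threshold, 24 changed sign and 1 passed (Otof). With no low-count filter edgeR called 32 genes in cKO against Loxp, 1 of them a marker (Otof), 68 in Hetero against Loxp and 39 in cKO against Hetero. DESeq2 called 20 genes in Hetero against Loxp and 3 in cKO against Hetero, and limma on log2(FPKM + 1) called 1 in Hetero against Loxp; none was a marker. Leaving out 1 library gave 0 to 1 genes in cKO against Loxp (mt-Nd4l without cKO 2), 0 to 15 in Hetero against Loxp and 0 to 14 in cKO against Hetero (both highest without Hetero 1, where the lone Hetero 2 is assumed to vary like the other groups), and 0 markers. The cause of these changes was not tested. In cKO against Loxp, with 1 library left out, Cux2 ran from −0.10 to 0.11, Rasgrf2 from −0.11 to 0.0759, Scnn1a from −0.23 to 0.0685 and Mdga1 from −0.18 to 0.55. In Hetero against Loxp, Mdga1 ran from −0.10 to 0.0806 and Thsd7a from −0.10 to 0.0454. In cKO against Hetero, Cux1 ran from −0.0047 to 0.10, Rspo1 from −0.0095 to 0.36, Otof from −0.31 to 0.59, Mdga1 from −0.19 to 0.55 and Whrn from −0.0737 to 0.32.

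The labels number the libraries in each group but do not say that a number pairs them. Of 8 same-numbered pairs, 2 had deviations that correlated above 0.1 (−0.03 to 0.32), while 9 of 10 libraries correlated best with their own number. A replicate block in the edgeR fit gave 1 gene in cKO against Loxp and 1 in Hetero against Loxp, Arc in both. Under this block the sign changed in Hetero against Loxp for Otof (−0.0125) and Mdga1 (−0.29), while Rspo1 went from −0.62 to −0.26, and in cKO against Hetero for Cux1 (−0.0375), Rspo1 (−0.23) and Scnn1a (−0.0442). The number of marker pairs with a relation went from 3 to 0 without the 2 libraries farthest from the median, to 10 after subtracting each group's mean, and stayed at 3 without cKO 2, though only Cux1 with Rasgrf2 was among both sets. Counts of 60 to 218 limit Rspo1 and Scnn1a.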
